A study of Mus musculus with 4 samples.

Results

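The genes described are the cytosolic ribosomal proteins, the protein parts of the large and the small subunit of the ribosome. They were chosen by symbol in the platform annotation: Rpl or Rps followed by a number and at most 1 of the letters a, x or l, together with Rplp0, Rplp1, Rplp2 and Rpsa where listed alone. That gave 45 of the 12393 genes on the array, read by 96 probe sets, with 24 genes (43 probe sets) in the large subunit and 21 genes (53 probe sets) in the small one. A further 102 probe sets list a ribosomal protein symbol together with other symbols, mostly of pseudogenes, and were kept apart with no gene named from them. For that reason Rpl3, Rpl5, Rpl10, Rpl23 and Rplp1 are not among the 45.

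RNA came from mouse CH10T1/2 cells, a fibroblast line, on 4 Affymetrix arrays with 1 array per group. Each line was stably transfected with PTHR1, the receptor for PTHrP, either as the wild type (WT) or as the R150C variant known from enchondromas, so every group carries a transfected receptor and each receptor is represented by 1 line. After a night without serum the cells had 1 h of PTHrP at 1e-07 M or served as control. For the R150C control the labels give carrier, and for the WT control they say control only, with carrier given by the series text. Not given in the sources used here are the promoter of the transgene, the species of its cDNA and whether a line is 1 clone. Receptor and line therefore cannot be told apart.

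Ribosomal proteins are made in nearly equal numbers, since each ribosome takes 1 copy of most of them, and free copies are degraded quickly. Their mRNAs are among the most abundant of a growing cell. Most of them begin with a 5' terminal oligopyrimidine tract (TOP), a cytosine followed by a run of pyrimidines, through which mTOR and Larp1 set how strongly they are translated. Control by growth signals is thus known mainly at translation, while an array reads only the amount of mRNA.

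The tract can be seen in the start sites that RefSeq gives for these genes (assembly GRCm38.p6). Promoter windows were found for 39 of the 45 genes, 47 windows in all, and in 8 of them (17.0%) the start base was a C followed by at least 4 pyrimidines, against 823 of 32851 windows of all genes (2.51%). The 8 are shown because they carry the family's own mark. The last line shows the paralog Rps27l, which lacks it at the start given there. Each line has 10 bases before and 20 from the start on, 5' to 3', with the tract in capitals.
Rpl14 (chr9:120571507-120571536, plus strand): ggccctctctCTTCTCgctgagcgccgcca
Rpl35 (chr2:39005112-39005141, minus strand): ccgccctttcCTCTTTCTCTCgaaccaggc
Rpl38 (chr11:114668570-114668599, plus strand): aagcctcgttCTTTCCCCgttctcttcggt
Rplp2 (chr7:141447641-141447670, plus strand): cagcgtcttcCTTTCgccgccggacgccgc
Rps6 (chr4:86857348-86857377, minus strand): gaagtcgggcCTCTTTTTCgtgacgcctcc
Rps10 (chr17:27635225-27635254, minus strand): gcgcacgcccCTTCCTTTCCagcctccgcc
Rps18 (chr17:33955646-33955675, minus strand): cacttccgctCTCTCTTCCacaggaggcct
Rps27 (chr3:90213629-90213658, minus strand): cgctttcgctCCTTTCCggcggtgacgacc
Rps27l (chr9:66946076-66946105, plus strand): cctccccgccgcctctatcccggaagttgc
In the 250 bases before the start, CCGGAA, a core of Ets family sites, was found on either strand in 20 of the 47 windows (42.6%), against 3952 of all 32851. TATAAA was found in 3 (6.38%) against 12.4%. These are matches of letters, and a RefSeq start can lie some bases away from the start used in a cell.

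The deposited value of a probe set, called its signal, is a linear, not a log, intensity. The authors scaled the arrays to 1 level, with a mean signal of 150.1 on each after trimming 2% at both ends. The top of the WT PTHrP array still lay higher, with a 99th percentile of 3504.2 against 3122.2 to 3137.5 on the other 3. The ratio of the 3' to the 5' control probe set was 0.845, 1.17, 0.991 and 1.21 for Gapdh and 1.42, 2.39, 2.13 and 2.31 for Actb on the WT control, WT PTHrP, R150C control and R150C PTHrP arrays. Of 15 fibroblast markers 12 passed the filter described next, with Col1a1 from 4440.1 to 6197.4, while Dcn, Lum and Fap were at 38.9 or below. Pdgfra, a receptor of fibroblasts, was the 1 marker called between the lines, at 164.4, 178.3, 114.3 and 114.9 in the same order of arrays, a fitted difference of -0.52 on the log2 scale given next (limma adjusted p = 0.0305). It was lower in the R150C line, as was the called member Rpl27a, and its part in that result was not tested. Of 29 measured markers of other cell types 7 passed the filter, Col2a1 among them at 1105.9 to 1481.0. The others that passed were dimmer: Fabp4 (129.3 to 185.6), Sox9 (112.4 or above), Csf1r (65.8 to 103.1), Krt8 (65.2 to 83.9), Pparg (64.2 to 87.9) and Sp7 (up to 117.4). Among those that did not pass, Epcam, Snap25 and Krt19 were at 6.3 or below, while Kdr reached 76.1. The summed signal of all measured markers of other cell types was 2140.1, 2375.3, 2638.3 and 2130.4.

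Signals of the 4 arrays are given below in the order WT control, WT PTHrP, R150C control, R150C PTHrP. Where a gene has several probe sets, the one with the highest mean stands for it, and differences are on the scale log2(signal + 16), without further centring, so that they follow from the signals printed. The 6197 genes whose mean lay at or above the median over genes, a signal of 62.6, were kept. Of the 45 ribosomal protein genes 42 were kept, 22 of the large and 20 of the small subunit. The 3 below the filter were Rpl39l, Rpl3l and Rps4l, described further on.

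Most kept members were bright on every array, while the dimmest on each array lay between 78.8 and 98.5, not far above the filter. The median signal of the large subunit genes was 4673.0, 5378.7, 4454.6 and 4354.0. That of the small subunit genes was 5448.2, 6354.9, 5206.6 and 4953.2. In both subunits the WT PTHrP array stood highest and the R150C PTHrP array lowest. Single genes followed: 32 of the 42 had their highest signal on the WT PTHrP array, and 25 their lowest on the R150C PTHrP array. Such counts were not made for other genes, but the 586 brightest other kept genes, defined below, leaned the same way. In the WT line 75.3% of them were higher with PTHrP than in control, against 83.3% of the members. Under PTHrP 67.4% of them were lower in the R150C line than in the WT line, against 85.7% of the members. Signals of different probe sets depend on the probes as well as on the mRNA, and no order between genes is read from them.

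**Figure D1:**
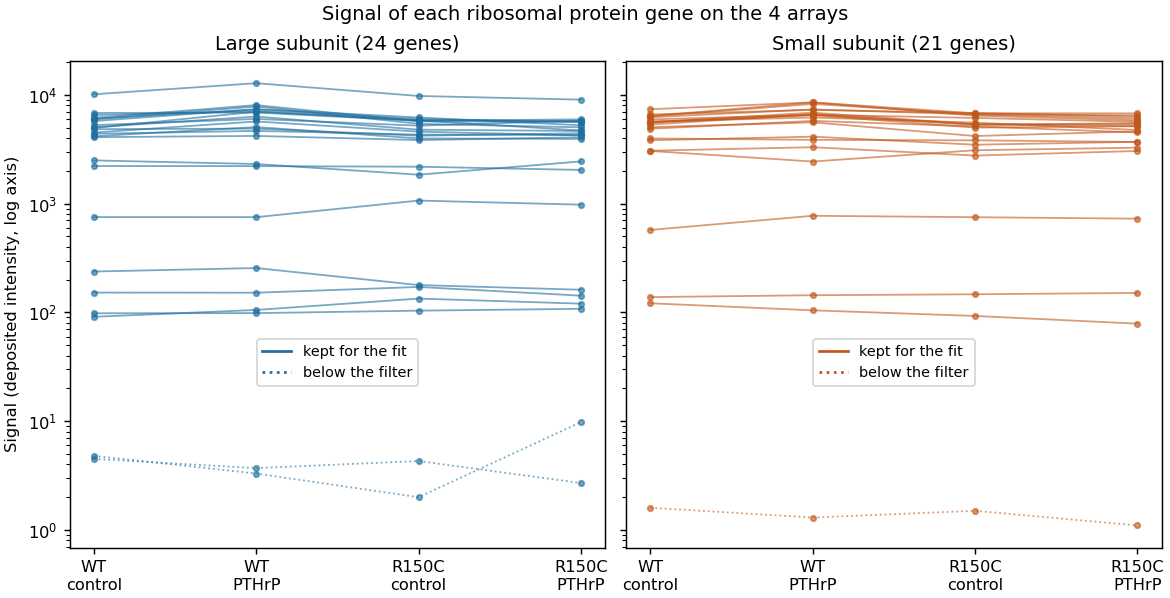
Signal (log axis) of each of the 45 genes on the 4 arrays, 1 line per gene through its brightest probe set, with the large subunit at left and the small one at right. Dotted lines are the 3 genes below the filter. Lines of the bright genes run nearly flat, with a small peak at the WT PTHrP array.

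Comparing the lines asked whether cells carrying the enchondroma variant hold other amounts of these mRNAs. In control medium they hardly differed: the median R150C minus WT difference was -0.04 for the large and -0.02 for the small subunit, beside -0.01 over all 6197 kept genes. None of the 42 members differed by 1.5-fold in control medium, whereas 6.57% of all kept genes were at least 1.5-fold higher and 4.94% at least 1.5-fold lower. Member differences ran from -0.43 to 0.49 with an SD of 0.19, against an SD of 0.43 over all kept genes. The 586 brightest other genes had an SD of 0.37, with 24 at least 1.5-fold higher and 8 at least 1.5-fold lower. Under PTHrP the medians were -0.25 and -0.28, beside -0.04 over all kept genes, and 36 of 42 members (85.7%) lay below 0. The share below 0 was 55.4% of all kept genes and 67.4% of the 586 brightest other genes, which are the kept genes at or above the 90th percentile of the mean, without the members. At 1.5-fold 2 members were lower under PTHrP, Rpl6 and Rpl27a, and none higher, where 4.7% and 6.44% of all kept genes were lower and higher. Of the 586 brightest other genes 14 were lower and 22 higher. The bright end of the WT PTHrP array moved with these medians, and its part in them was not tested. Those 586 genes had a median of -0.13 there and 0.01 in control medium. With quantile normalization, which makes the arrays' distributions equal, the medians under PTHrP became -0.01 and 0.04.

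Over both media, limma's additive model of receptor and treatment called 1 of the 42 members lower in the R150C line and none higher, at a Benjamini-Hochberg adjusted p under 0.05 over all kept genes. Over all kept genes the shares called were 5.15% lower and 7.46% higher. At an unadjusted p under 0.05 there were 4 of 42 members (9.52%), against 1603 of all 6197 kept genes (25.9%). Error was judged by how far a gene's 4 values depart from a sum of receptor and treatment effects, which leaves 1 residual degree of freedom per gene. The eBayes step then drew each gene's variance towards a value common to all kept genes, weighted as 20.8 degrees of freedom. A gene's own departure therefore counted for little. The p-values thus speak for these 4 arrays, with no replicate of any group. The standard errors of the members ran from 0.16 to 0.18.

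In the large subunit the called gene was Rpl27a, with signals of 237.7, 255.8, 178.5 and 161.6. Both R150C arrays lay below both WT arrays, and the fitted difference was -0.50 (SE 0.16, limma adjusted p = 0.0409). Of 11 settings that kept the gene, the reported one included, only that one and the variance trend, fitted to the same values, called it. Adjusted p by limma ran from 0.0246 to 0.613. Its other probe set was at 11.5 or below on every array. Rpl27a was among the dimmer of the kept members, far below the median signals of its subunit. With every probe set as a unit, the probe set that stands for Rpl27a was not called.

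The 3 members next in order at the lower end of the large subunit were Rpl6, Rpl19 and Rpl41. Rpl6 read 5953.5, 7825.5, 5418.1 and 5029.5, with both R150C arrays below the WT arrays and a fitted difference of -0.39 that did not pass (limma adjusted p = 0.142). Rpl19 read 6155.9, 8055.1, 5710.5 and 5660.9, a fitted difference of -0.31. Rpl41, which encodes a very short protein rich in basic residues, read 10131.5, 12808.6, 9772.8 and 9042.2, a fitted difference of -0.28. In all 3 the WT PTHrP array stood well above the others, and neither Rpl19 nor Rpl41 passed (limma adjusted p = 0.24 and 0.302).

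At the upper end stood Rpl37, which encodes a zinc-binding protein, at 753.0, 751.5, 1067.3 and 978.6. The R150C arrays did not overlap the WT arrays, and the fitted difference of 0.43 missed the threshold (limma adjusted p = 0.0771). Of 11 settings, 2 called it, and its adjusted p by limma ran from 0.0271 to 0.304. Rpl12, at the base of the stalk that receives elongation factors, read 91.1, 105.4, 134.0 and 120.4, a fitted difference of 0.33 with an adjusted p of 0.201 by limma. Rpl14 (98.2, 98.5, 103.8 and 107.9) and Rpl39 (152.2, 151.7, 171.4 and 142.6) differed by 0.09 and 0.04. Rpl12, Rpl14 and Rpl39 were among the dimmer of the kept members.

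The stalk proteins, to which the GTPases of translation bind, were close to the rest of the subunit. Rplp0, often used as a reference gene, read 6817.6, 6887.1, 5770.8 and 5956.8, with a fitted difference of -0.22. Rplp2 read 5043.2, 6323.4, 4788.2 and 4653.9, with a fitted difference of -0.26. Neither passed limma's test (adjusted p = 0.393 and 0.332), although both R150C arrays lay below both WT arrays in each gene. Rpl11, which in the free state binds Mdm2 and thereby links ribosome assembly to p53, was flat at 2217.1, 2213.6, 2185.5 and 2041.7. Rpl13a, another common reference gene that can leave the ribosome to hold back translation of inflammatory mRNAs, read 4507.1, 5696.8, 4594.5 and 4239.0. Rpl38, needed in the mouse embryo for translation of certain Hox mRNAs, read 6039.0, 7330.0, 5993.2 and 5623.7. Fitted differences of the last 3 were -0.07, -0.20 and -0.20, none of which passed (limma adjusted p from 0.48 to 0.837).

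In the small subunit no gene passed. Rps27, another zinc-binding protein gene, read 121.3, 104.5, 92.8 and 78.8, with the R150C arrays below the WT arrays and a fitted difference of -0.34 (SE 0.16, limma adjusted p = 0.17). Rps7 read 5054.0, 5591.2, 4184.8 and 4620.5 (-0.27), again without overlap of the lines. Rpsa, also known as the laminin receptor, read 6395.4, 8525.0, 6451.3 and 5840.0 (-0.27), and its difference came from the PTHrP arrays alone, with 0.01 in control medium and -0.54 under PTHrP. Rps26, mutated in some families with Diamond-Blackfan anaemia, read 5556.9, 6515.6, 5003.3 and 5150.1 (-0.24). For Rps7, Rpsa and Rps26 the adjusted p by limma ran from 0.286 to 0.349.

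At the upper end of the small subunit Rps25, a protein used by internal ribosome entry sites, read 573.1, 773.2, 750.5 and 727.7, and its fitted difference of 0.15 came from 0.38 in control medium and -0.09 under PTHrP. Rps6, the substrate of the S6 kinases downstream of mTOR, read 138.3, 143.9, 146.8 and 151.1, a fitted difference of 0.07. Rps9 read 3977.5, 3859.4, 3819.8 and 3689.8, a fitted difference of -0.06 that turned to 0.25 with the mean of its probe sets. Without _x_at and _s_at probe sets Rps9 stood at 0.52 and was called higher (limma adjusted p = 0.048), with adjusted p from 0.048 to 0.963 over 12 settings. Rps19, the gene most often mutated in Diamond-Blackfan anaemia, read 3068.1, 3303.1, 2767.0 and 3048.8 (-0.13), and the X-linked Rps4x read 5339.4, 6652.9, 5283.2 and 5508.0 (-0.14). In the reported setting none of these 5 passed limma's test, with adjusted p from 0.618 to 0.857.

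The 8 genes whose tract is printed above had fitted line differences on both sides of 0. Rps27 lay at -0.34, Rplp2 at -0.26, Rpl38 at -0.20, Rps18 at -0.14, Rps10 at -0.08 and Rpl35 at -0.03, while Rps6 lay at 0.07 and Rpl14 at 0.09. No gene among them was called.

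**Figure D2:**
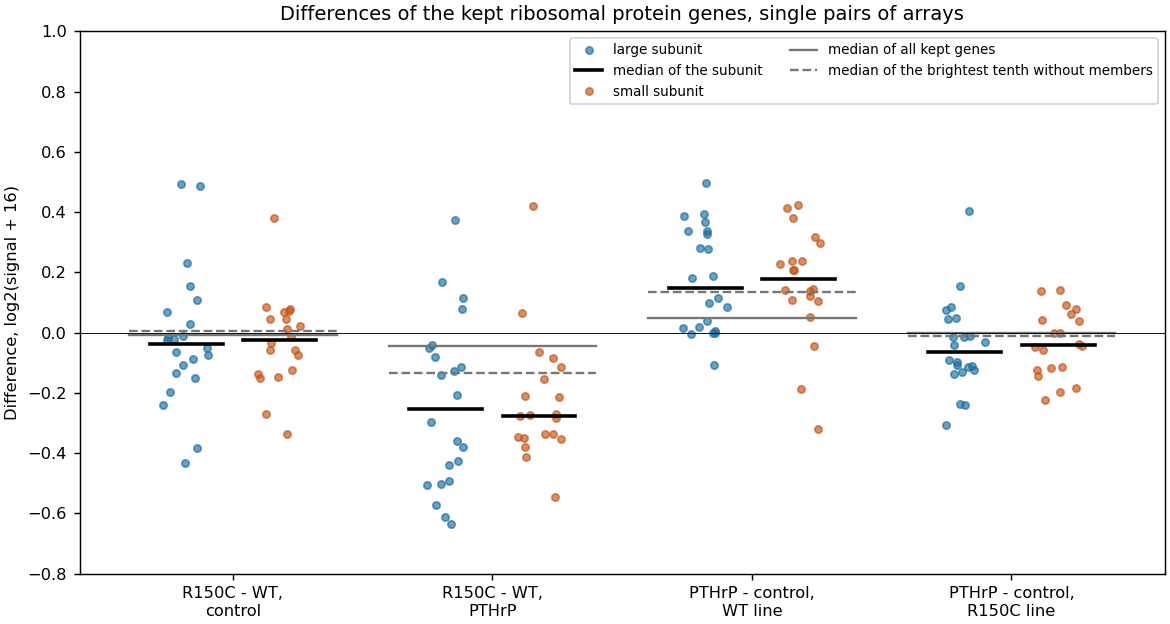
Differences of the 42 kept genes on the scale log2(signal + 16) in the 4 single pairs of arrays, 1 point per gene, with black bars at the subunit medians and grey lines at the median of all kept genes (solid) and of the 586 brightest other genes (dashed). Both comparisons that use the WT PTHrP array are shifted, to medians of -0.25 and -0.28 between the lines and 0.15 and 0.18 within the WT line, and the other 2 lie near 0.

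The comparison of PTHrP with control asked what 1 h of ligand does to these mRNAs. In the WT line 35 of 42 members (83.3%) lay above 0, where 57.8% of all kept genes and 75.3% of the 586 brightest other genes did, with medians of 0.15 for the large and 0.18 for the small subunit, beside 0.05 over all kept genes and 0.14 over the 586 brightest other genes. None reached 1.5-fold in either direction, where 1.6% of all kept genes were higher and 2.16% lower. Of the 586 brightest other genes 7 were higher and 6 lower. Rpl37a, a zinc-binding protein gene, had the highest difference of the large subunit at 0.50 (4960.6 to 7004.3), followed by Rpl6 at 0.39. Rps25 at 0.42 (573.1 to 773.2) and Rpsa at 0.41 (6395.4 to 8525.0) stood highest in the small subunit. At the lower end were Rpl22 at -0.11 (2496.3 to 2315.0) and Rpl39 at -0.0043 in the large subunit, and Rps27l at -0.32 (3051.3 to 2439.4) and Rps27 at -0.19 in the small one. With 1 array on each side these are values without a test. Centring each array on its median took the medians to 0.32 and 0.35, and quantile normalization to 0.04 and -0.02.

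In the R150C line the same treatment left medians of -0.07 and -0.04, beside -0.0004 over all kept genes and -0.01 over the 586 brightest other genes. Below 0 lay 29 of 42 members, 3101 of all 6197 kept genes and 53.1% of the 586 brightest other genes. No member reached 1.5-fold, where 1.32% of all kept genes were higher and 0.613% lower. Of the 586 brightest other genes 2 were higher and 0 lower. Rpl22, which encodes a protein the ribosome can do without, stood highest at 0.40 (1845.3 to 2445.4), followed in the large subunit by Rpl35 at 0.15. Rps19 at 0.14 (2767.0 to 3048.8) and Rps7 at 0.14 (4184.8 to 4620.5) led the small subunit. The lowest were Rpl37a at -0.31 (5820.3 to 4707.0) and Rpl39 at -0.24, then Rps14 at -0.23 (5562.1 to 4756.4) and Rps27 at -0.20.

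For PTHrP over both lines limma called no member, with 0 of 42 at an unadjusted p under 0.05 and adjusted p from 0.917 to 0.992. Over all kept genes it called 0.0161% higher and 0.0% lower, with 397 of 6197 at an unadjusted p under 0.05. The response in the R150C line minus that in the WT line had a median of -0.23 over the members and was below 0 in 35 of 42. Over all kept genes the median was -0.04, with 55.1% below 0. Over the 586 brightest other genes it was -0.13, with 68.4% below 0. Rpl37a had the largest such gap (-0.80) and Rpl22 the largest the other way (0.51). This gap was not tested. Whether the lines differ in response or the WT PTHrP array differs from the others as an array cannot be told apart with 1 array per group.

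Pairs of arrays with no array in common can be set side by side. Across the 42 members the line difference in control medium and that under PTHrP correlated with a Pearson r of 0.343 (Spearman rho 0.189), against 0.677 (0.508) over all kept genes. For PTHrP minus control, the WT and R150C pairs gave r = -0.338 (rho -0.26) over members and 0.048 (0.044) over all kept genes. Genes are not independent replicates, and all points of a pair share the same arrays.

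Other probe sets of the same genes give a second reading. Of the 96 member probe sets 81 lay at or above the median of the 22626 non-control probe sets, and 18 genes had at least 2 of these. In control medium all kept probe sets of a gene had the same sign of the line difference in 4 of the 18 genes, and under PTHrP in 9. For PTHrP the count was 14 genes with WT and 6 with R150C. The distance between a gene's highest and lowest probe set had a median of 0.28 for the line difference in control medium, against a median line difference of -0.03 over the members.

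With every probe set as a unit of its own, a choice made after seeing the data, limma called 2 member probe sets higher in the R150C line and none lower, where 2.81% and 1.21% of all 11313 kept probe sets were called. One reads Rps10, of the small subunit's beak region. It gave 1102.0, 1637.3, 3460.0 and 3582.8, with both R150C arrays far above the WT arrays and a fitted difference of 1.38 (limma adjusted p = 0.00884). The other 4 kept probe sets of Rps10 lay between -0.13 and 0.24 in control medium and between -0.37 and -0.04 under PTHrP. The brightest of them, which stands for the gene above, read 5947.8, 6567.3, 6140.4 and 5655.0.

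The second called probe set reads Rps24, another gene of Diamond-Blackfan anaemia, and gave 41.6, 45.6, 153.8 and 122.8, a fitted difference of 1.37 (limma adjusted p = 0.00719). Its lines did not overlap. The other 4 kept probe sets of Rps24 lay between -0.08 and 0.10 in control medium and between -0.35 and 0.14 under PTHrP, at signals of 1330.0 or more. When probe sets with the suffixes _x_at and _s_at, which can bind several transcripts, were left out, this probe set stood for Rps24, and limma called the gene with an adjusted p of 0.000148.

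A few more probe sets departed from their partners. A dim one of Rpl37a read 65.9, 203.4, 106.3 and 66.0, so that the WT PTHrP array stood 1.42 over the WT control. One of Rpl7, a large subunit protein, read 2788.9, 1623.7, 3079.6 and 2963.9, lowest on the array where most members were highest. Its partner of highest mean read 4084.9, 4194.7, 3842.7 and 4078.1. Among 3 kept probe sets of Rps9 the dim ones read 56.2, 53.4, 82.5 and 88.5 in one case and 89.2, 75.7, 74.4 and 145.6 in the other. These probe sets were named after their values were seen.

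**Figure D3:**
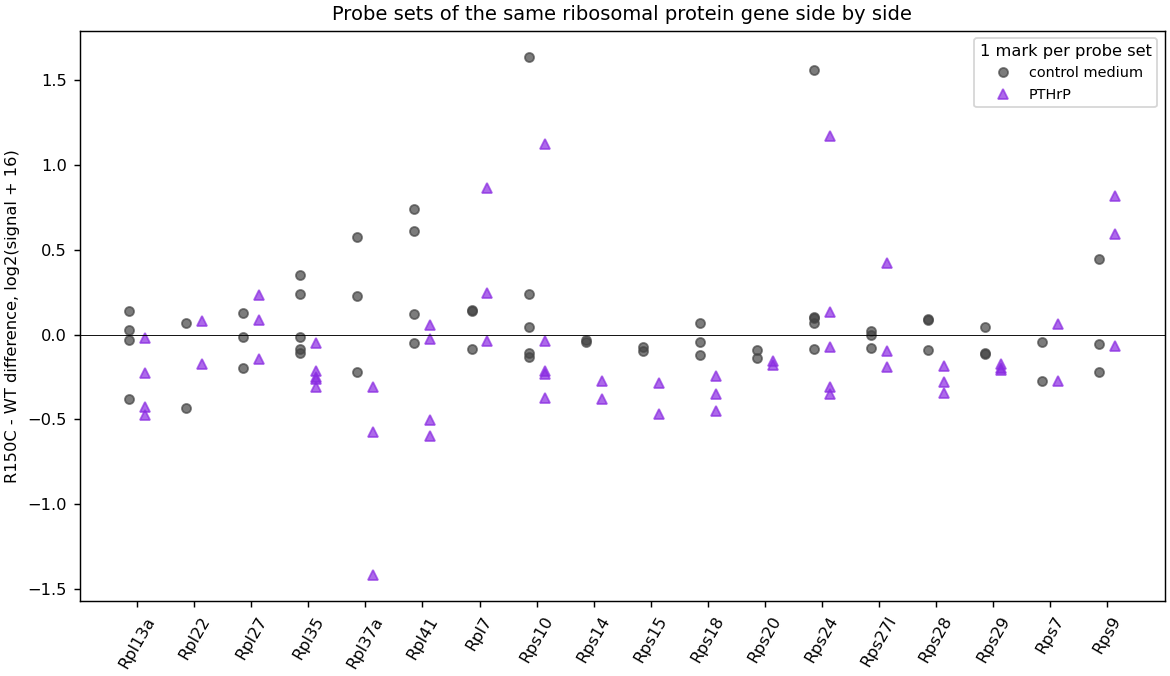
R150C minus WT difference, log2(signal + 16), of each kept probe set for the 18 genes with at least 2 of them, with circles for control medium and triangles for PTHrP. Most probe sets lie within 0.5 of 0, and 1 probe set each of Rps10 (1.64 and 1.12) and Rps24 (1.56 and 1.17) stands far above its partners.

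The paralogs whose symbol ends in l differed among themselves. Rps27l, a copy of Rps27 that p53 can induce, had 3 probe sets. The brightest read 3051.3, 2439.4, 3096.5 and 3271.9, and the other probe sets 2684.9, 2871.1, 2543.0 and 2517.1, and 2821.7, 3021.7, 2813.0 and 2820.5. The brightest was lowest on the WT PTHrP array, where the other probe sets were highest. Its fitted line difference of 0.22 (limma adjusted p = 0.421) became -0.13 without probe sets of the suffixes _x_at and _s_at. Rpl39l, a copy of Rpl39 known from testis, read 4.8, 3.3, 2.0 and 9.8. Rpl3l, a copy of Rpl3 used in heart and skeletal muscle, read 4.5, 3.7, 4.3 and 2.7. Rps4l read 1.6, 1.3, 1.5 and 1.1. All values of these 3 genes lay below the 25th percentile of their array (12.6 to 15.2), so no difference is read from them.

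Probe sets that list a ribosomal protein with other symbols had median differences near those of the members. Of the 102 such probe sets 90 passed the probe set filter. Their median differences between the lines were -0.05 in control medium and -0.32 under PTHrP, and those for PTHrP 0.24 with WT and -0.03 with R150C. Processed pseudogenes of these genes are many and nearly identical to the mRNA, so that any of the probe sets described here may also bind transcripts of such copies. This was not tested.

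Other genes of translation give the setting, beside 7.46% of all kept genes called higher in the R150C line and 5.15% lower. Of 20 measured TOP mRNAs that code for no member, such as elongation factors, all were kept and none was called in either direction. Their median line difference over both media was -0.15, beside -0.17 over the members and -0.03 over all kept genes. Btf3, part of the nascent chain complex, stood at -0.39 and Vim, the intermediate filament vimentin, at -0.29, with limma adjusted p of 0.12 and 0.256. Of 73 kept mitochondrial ribosomal protein genes, which serve the separate ribosome of mitochondria, 1 was called lower and none higher, with a median of -0.16. The called gene was Mrpl55, at 138.0, 154.4, 87.5 and 84.8, a fitted difference of -0.67 (limma adjusted p = 0.00608).

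Of 18 kept genes for factors that build ribosomes 3 were called higher in the R150C line and none lower, where 7.46% of all kept genes were called higher. Their median difference was 0.13, with 13 above 0 and 5 below. Rrs1, needed to mature the large subunit, read 400.2, 439.0, 689.3 and 769.8, a fitted difference of 0.77 (limma adjusted p = 0.00147). Gnl3, the nucleolar GTPase nucleostemin, stood at 0.56 and Nmd3, the export adaptor of the large subunit, at 0.54, with limma adjusted p of 0.0193 and 0.0248. All kept genes had shares of 7.46% called higher and 5.15% lower. Among 16 kept genes of the mTOR, S6 kinase, Larp1, Myc and Mdm2 list 2 were called higher and none lower. They were Myc, which drives ribosome synthesis, at 90.7, 58.8, 529.9 and 473.0, a fitted difference of 2.53 (limma adjusted p = 1.45e-10), and its partner Max, at 140.1, 117.2, 228.9 and 172.6, a fitted difference of 0.58 (limma adjusted p = 0.0164). For PTHrP no gene of these 4 lists was called. Myc, Max and Rrs1 had both R150C signals above both WT signals. Among the ribosomal proteins Rpl27a, called in few settings, had both below, and Rpl37, not called in the reported setting, had both above. The fitted line difference was below 0 in 35 of the 42 members and above 0 in 7. It was below 0 in 54.8% of all kept genes and in 62.5% of the 586 brightest other genes. Among the other lists it was below 0 in 18 of 20 TOP mRNAs and 61 of 73 mitochondrial ribosomal protein genes. For the ribosome assembly factors this held in 5 of 18, and for the list with mTOR and Myc in 9 of 16. A link between Myc and these genes was not tested.

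**Figure D4:**
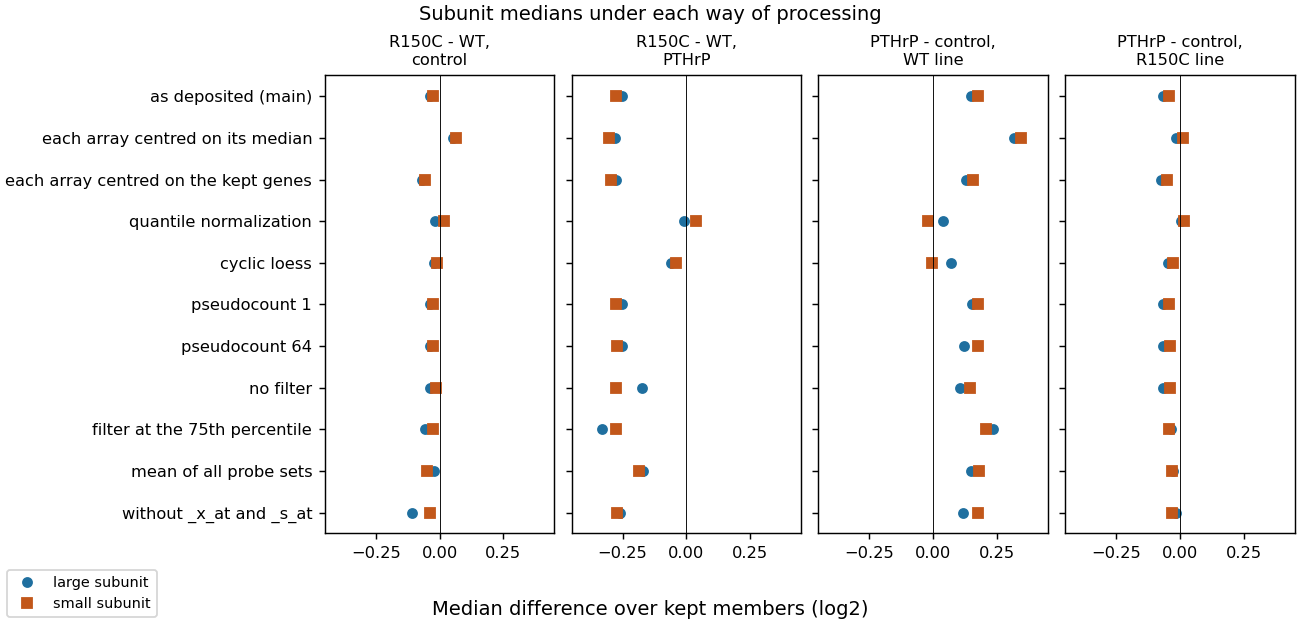
Median difference over the kept genes of each subunit (circles large, squares small) in the 4 single pairs of arrays, under the main setting and 10 other ways of processing. Quantile normalization and cyclic loess bring the comparisons with the WT PTHrP array close to 0, and centring on the array median raises the PTHrP medians of the WT line to 0.32 and 0.35.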

How the data were processed

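Signals of 22690 probe sets, 64 of them controls, were used as deposited. These intensity values were made by the authors, per the submitters' processing notes, in a program named there as Affymetrix Expression Console, without version or algorithm. The table has no detection calls, and having 4 arrays limits the precision. Of the other probe sets 20380 had 1 gene symbol, 691 several and 1555 none. Gene names were updated through Entrez identifiers in a RefSeq table (GRCm38.p6).

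Each gene was read by its probe set of highest mean log2(signal + 16), genes with a mean at or above the median were kept, and limma (version 3.58.1, R 4.3.3) fitted receptor and treatment additively, with eBayes and Benjamini-Hochberg adjustment at 0.05. The fit was tested on simulated data. Single pairs of arrays have no test. Members named are those called, the 4 highest and 4 lowest line differences of each subunit, the 2 highest and 2 lowest PTHrP differences of each line, genes with a fixed role such as the stalk, and the paralogs ending in l with their parent genes; of other lists, those called or else the 2 largest differences. Alternatives were 4 scalings, 2 pseudocounts, 2 filters, 2 rules on probe sets, a variance trend and a fit over probe sets. Members and lists were chosen with earlier results of these data known.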

Additional observations from a re-analysis of the deposited data

Results flagged for a closer look

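The response to PTHrP had opposite signs in the lines for both subunits, taken as medians over the kept genes. In the large subunit the median was 0.15 for WT and -0.07 for R150C, a gap of -0.21. In the small subunit it was 0.18 and -0.04, a gap of -0.22. With 1 array per group these gaps were not tested. The opposite signs depended on the scaling. Centring on the array median gave 0.32 and -0.014 (WT, then R150C) in the large subunit and 0.35 and 0.012 in the small one. Quantile normalization gave 0.040 and 0.0063 in the large subunit and -0.020 and 0.017 in the small one. Cyclic loess gave 0.072 and -0.046 in the large subunit and -0.0048 and -0.025 in the small one.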

How the results depend on the processing

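No paired analysis was possible because the groups share no more than 1 replicate number, and with 1 array per group none could be left out. The additive fit itself already compares the lines within each medium. The cause of the changes below was not tested. Members called lower in the R150C line numbered 1 in the reported setting and with a variance trend, and 0 with centring on the array median or on the kept genes, quantile normalization, cyclic loess, a pseudocount of 1 or 64, no filter, a filter at the 75th percentile, the mean of all probe sets, without _x_at and _s_at, and with every probe set as a unit, the last chosen after seeing the data. Members called higher numbered 1 with a pseudocount of 64 and with the trend (Rpl37 in both), 2 without _x_at and _s_at (Rps24, Rps9) and 2 probe sets as units, against 0. Shares called over all kept genes were counted only in the reported setting, 5.15% lower and 7.46% higher. Over all kept probe sets they were 1.21% and 2.81%. For the remaining settings no such share stands beside the member counts, and nothing is read from them. Centring on the array median gave PTHrP medians in the WT line of 0.32 (large) and 0.35 (small). Quantile normalization gave, for R150C minus WT under PTHrP, -0.0089 (large), 0.038 (small) and 0.075 for members minus all kept genes, and for PTHrP in the WT line 0.040, -0.020 and -0.062. Cyclic loess gave -0.062, -0.040 and -0.024 for the former, and -0.0048 (small) and -0.015 (members minus all kept genes) for the latter. Fitted line differences changed sign with quantile normalization for Rpl35 (0.15), Rpl37a (0.025), Rps4x (0.037) and Rps9 (0.053), where that of Rpl41 became 0.0, and with cyclic loess for Rpl11 (0.0064), Rpl35 (0.093) and Rps9 (0.044). They did so with the mean of all probe sets for Rpl35 (0.024), Rpl41 (0.044) and Rps9 (0.25), and without _x_at and _s_at for Rps27l (-0.13) and Rps9 (0.52).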
